A study of Mus musculus with 14 samples.

Results

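This account describes 46 genes of the extracellular matrix, with the type IV collagens left aside, in nuclear RNA of the young mouse heart. The rule names them by symbol, and the list was drawn up with earlier results of these data known: 6 fibrillar collagens, 9 other collagens, 6 elastic fibre and adhesive glycoproteins, 5 matricellular proteins, 3 crosslinking enzymes, 5 proteases and protease inhibitors, 4 interstitial proteoglycans and 8 basement membrane proteins. Each symbol matched 1 row among the 54446 genes of the deposited table, and all 46 were among the 17987 genes with enough reads to test.

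All animals were wildtype mice of the outbred strain ICR, whose hearts were collected at postnatal day 12. The 5 Control libraries came from mice that got no virus. The other mice had been injected into the peritoneum on postnatal day 7 with adeno-associated virus AAV9 at 1e+11 genome copies of each virus. In the labels the MEF2A group (4 libraries) got AAV:cTnT-hMEF2A, which carries human MEF2A, a muscle transcription factor. The YAP5SA group (3 libraries) got AAV:cTnT-YAP5SA, which carries a form of the coactivator YAP that the Hippo kinases cannot switch off. The 2 YAP5SA_MEF2A libraries came from mice given both viruses. The cardiac troponin T promoter (cTnT) restricts either transgene to cardiomyocytes. Nuclei were enriched by PCM1, a protein that sits at the nuclear surface of cardiomyocytes, so the RNA is nuclear, and markers of other cell types were still present, as given below. Because the Controls got no virus at all, each comparison with them sets virus and transgene together against neither, and their parts cannot be told apart. Mice given both viruses also got more virus in total than the single-virus groups. Against those groups, the second transgene and the added virus cannot be told apart.

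Of the 14 libraries, 8 were in batch 1, with 2 from every group, and 6 in batch 2 (3 Control, 2 MEF2A and 1 YAP5SA). Library totals ran from 16171068 to 24027622 reads. Nothing in the labels ties a library to its own animal, and p-values therefore cover only library-to-library spread, part of which may be technical. Mitochondrially encoded genes took 60.7% and 67.5% of the reads of Controls 1 and 2, which also had the fewest detected genes, 32.2% of YAP5SA 3, and from 3.80% to 23.2% elsewhere. The 46 genes together held from 6393 to 7665 depth-normalised reads (CPM, the usual scale of reads relative to library size) in the Control and MEF2A libraries and 7126 and 7266 CPM in those with both viruses. YAP5SA 1 and YAP5SA 2 stood at 8029 and 7203 CPM, and YAP5SA 3 stood apart at 10896 CPM. CPM were taken over library totals scaled by trimmed-mean (TMM) factors. Values below are CPM unless stated, and results that rest on YAP5SA 3 or on Controls 1 and 2 are also given without them.

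The matrix of the heart is a mesh of collagen fibrils, elastic fibres and glycoproteins laid down mostly by fibroblasts, while each cardiomyocyte is also wrapped in a basement membrane of laminin, nidogen, perlecan, agrin and type IV collagen. Procollagens are hydroxylated and folded inside the cell, trimmed and assembled outside it, and then crosslinked by lysyl oxidases. Matricellular proteins such as thrombospondins bind matrix and cell receptors without building fibres. YAP acts through TEAD factors bound to DNA, and its textbook targets include several secreted matrix and matricellular genes.

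Promoters of 4 collagen and inhibitor genes that rose with YAP5SA are shown, so that the letters upstream of these genes can be read beside their values. They are the 250 bases before the RefSeq start on GRCm38.p6, written along the gene's strand, at chr16:57754738-57754987 (minus strand) for Col8a1, chrX:20869916-20870165 (plus) for Timp1, chr4:47207762-47208011 (plus) for Col15a1 and chr10:76623631-76623880 (minus) for Col6a2. Capitals mark a match to GGAATG, the core letters bound by TEAD factors, on either strand.
Col8a1: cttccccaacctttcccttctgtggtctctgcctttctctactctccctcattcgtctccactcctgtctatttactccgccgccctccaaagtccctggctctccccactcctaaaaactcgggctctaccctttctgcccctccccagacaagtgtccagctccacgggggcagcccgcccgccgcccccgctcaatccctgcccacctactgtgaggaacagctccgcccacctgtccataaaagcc
Timp1: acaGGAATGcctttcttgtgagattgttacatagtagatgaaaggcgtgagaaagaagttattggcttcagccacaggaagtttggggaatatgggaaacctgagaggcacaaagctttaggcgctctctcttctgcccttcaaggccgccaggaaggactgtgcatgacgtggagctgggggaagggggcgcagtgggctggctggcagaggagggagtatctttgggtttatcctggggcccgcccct
Col15a1: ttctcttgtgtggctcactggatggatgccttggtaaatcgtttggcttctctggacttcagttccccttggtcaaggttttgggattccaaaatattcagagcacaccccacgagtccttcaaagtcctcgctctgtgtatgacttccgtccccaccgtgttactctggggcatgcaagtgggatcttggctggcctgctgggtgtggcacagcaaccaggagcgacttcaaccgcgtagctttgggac
Col6a2: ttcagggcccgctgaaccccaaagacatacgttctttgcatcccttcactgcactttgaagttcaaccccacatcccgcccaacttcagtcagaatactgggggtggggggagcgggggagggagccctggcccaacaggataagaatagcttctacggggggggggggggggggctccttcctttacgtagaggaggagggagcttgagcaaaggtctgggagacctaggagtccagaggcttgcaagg
The set of RefSeq promoters used here held 36 such windows for 30 of the 46 genes, and Col12a1, Thbs1, Lama4, Lamc1, Lox and Loxl2 were not among them. GGAATG on either strand stood in 5 of the 36 windows (13.9%), those of Col18a1, Col3a1, Col6a2, Nid1 and Timp1, against 12.6% of all 32851 windows. TGANTCA, the AP-1 letters, stood in 1 (2.78%), that of Col6a1, against 6.75% of all windows. The MEF2 letters (CTA, 4 of A or T, then TAG) stood in 0, against 0.508% of all windows. The share of matrix promoters with the TEAD letters was therefore close to that of all promoters, and in the 4 printed windows only Timp1 holds them. The other Col6a2 window, which overlaps this one and reaches into the annotated gene, held the Col6a2 match. Timp2 and Tgfbi, which also rose with YAP5SA, have windows that are not printed and that held no match. A match is a description of the letters only.

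In untreated hearts the most abundant matrix transcripts per length belonged to the basement membrane and to type III collagen. On the scale of CPM per kilobase of exon, the Control mean was 98.6 ± 36.1 (SD, n = 5) for Agrn, the proteoglycan agrin of the cell surface and basement membrane. It was 74.5 ± 13.3 for Col3a1, the chain of type III collagen, and 71.0 ± 7.46 for Hspg2, the basement membrane proteoglycan perlecan. Sparc, a collagen-binding matricellular protein, followed with 68.3 ± 37.6, and Eln, elastin, with 67.8 ± 18.4. These 5 neighbours in the order do not differ beyond their spread. At the other end stood Thbs1 (0.789), Col8a1 (0.498), Col12a1 (0.394) and Timp3 (0.280 CPM per kilobase). Genes with the largest YAP5SA difference below, Col12a1 and Thbs1, were thus among the 4 lowest in the Controls.

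**Figure D1:**
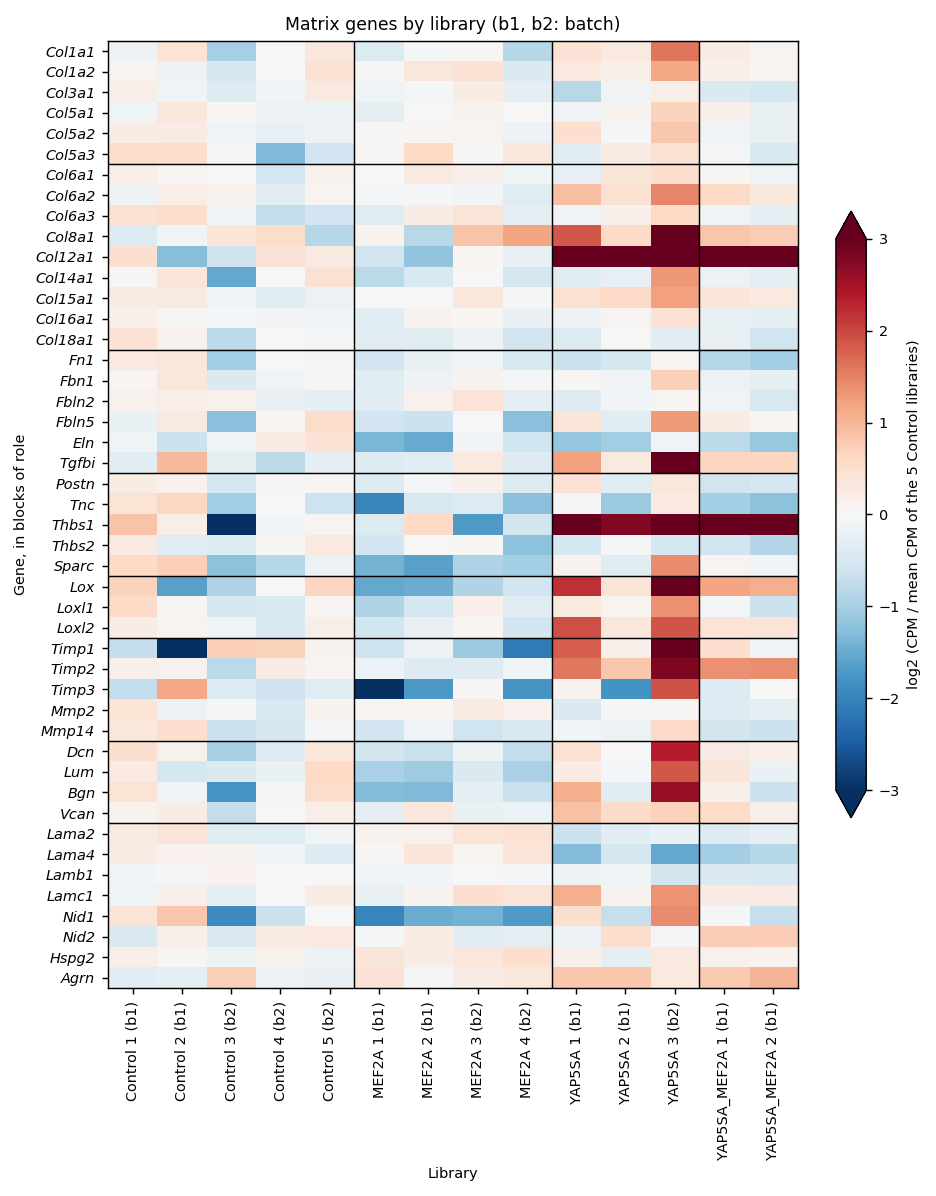
Level of each of the 46 genes (rows, in blocks of role) in each of the 14 libraries (columns, by group), as log2 of CPM over the Control mean, with colours limited to 3 either way. The column of YAP5SA 3 is the highest of the 3 YAP5SA libraries in 35 of the 46 rows, and Col12a1 and Thbs1 are high in every library given YAP5SA.

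With YAP5SA against Control, the genes of collagen XII (Col12a1) and thrombospondin 1 (Thbs1) were higher, and the laminin chain Lama4 was lower. Of the genes chosen here, 2 of the 3 lysyl oxidases (Lox and Loxl2) and 2 of the 3 TIMP inhibitors (Timp1 and Timp2) were also higher. With edgeR's quasi-likelihood test over all genes, 12 of the 46 passed an adjusted p of 0.05 (26.1%), where 9.86% of all tested genes did. Of these 11 rose and 1 fell, against 5.69% of all genes called higher and 4.17% called lower. In 8 of the 46 all YAP5SA libraries were above all Controls and in 2 below, against 8.51% and 5.13% of all tested genes. The median log2 difference over the 46 was 0.53, and over all tested genes 0.06. Much of this rested on YAP5SA 3, the library of highest summed matrix level and the only YAP5SA library of batch 2: without it 3 of the 46 passed (Col12a1, Timp2 and Lama4), where 3.08% of all genes did, and the median of the 46 was 0.01. Leaving out Controls 1 and 2, which had the high mitochondrial share, gave 19 of the 46 (11.5% of all genes). Leaving out all 3 of these libraries gave 1, Col12a1 (0.428% of all genes). In that fit the Controls are all of batch 2 and the YAP5SA libraries all of batch 1, so group and batch are separated only through the 4 MEF2A libraries.

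**Figure D2:**
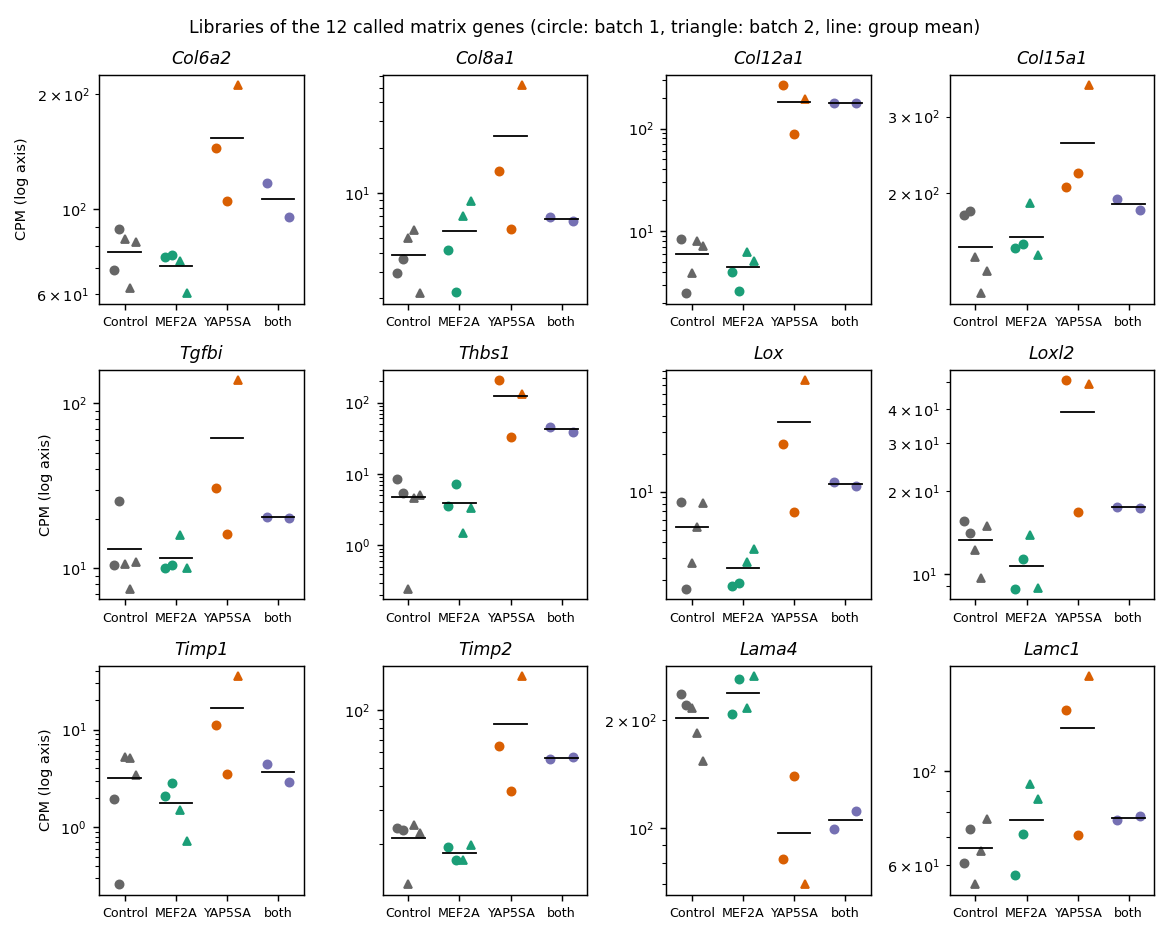
CPM on a log axis of the 12 genes that passed the test in YAP5SA against Control, by library and group; circles are batch 1, triangles batch 2 and lines group means. Col12a1, Thbs1 and Timp2 lie above every Control in all 3 YAP5SA libraries, Lama4 below, and YAP5SA 3 is the highest triangle for genes such as Tgfbi, Timp1 and Lox.

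Among the 9 microfibrillar, network and fibril-associated collagens, 4 rose with YAP5SA and 5 did not pass. Col12a1 encodes type XII collagen, which decorates fibrils in tissues under load (GRCm38 chr9:79598991-79718831, minus strand). It stood at 8.39, 2.48, 3.88, 8.04 and 7.201 CPM in Controls 1 to 5 and at 266, 88.3 and 195 in YAP5SA 1 to 3. It stood at 3.97, 2.62, 6.29 and 5.17 in MEF2A 1 to 4 and at 176 and 178 with both viruses. Every library given YAP5SA was far above every library that was not, with no overlap. The mean rose from 5.996 ± 2.65 (SD, n = 5) to 183 ± 89.4 (n = 3), a ratio of 30.5 and a log2 difference of 5.04 ± 0.42 (SE; adjusted p = 1.41e-05). Without YAP5SA 3 it was 5.18 (adjusted p = 3.67e-04), and it was called under all 27 alternative settings and library omissions tried.

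Col8a1 encodes a short-chain collagen of vessel walls and remodelling tissue (chr16:57624258-57754737, minus strand). It stood at 2.95, 3.65, 5.02, 5.72 and 2.16 CPM in the Controls and at 14.1, 5.77 and 52.1 in YAP5SA 1 to 3. YAP5SA 2 lay just above the highest Control and YAP5SA 3 far above it, so the groups nearly meet but do not overlap. The log2 difference was 2.59 ± 0.43 (adjusted p = 0.00119), and 1.85 without YAP5SA 3 (adjusted p = 0.0612). MEF2A libraries held from 2.18 to 8.81 CPM and those with both viruses 6.90 and 6.49.

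Col6a2, a chain of the beaded type VI collagen that surrounds muscle fibres (chr10:76595762-76623630, minus strand), stood at 69.1, 88.6, 83.8, 62.0 and 81.9 CPM in the Controls and at 145, 105 and 212 in YAP5SA 1 to 3. All 3 YAP5SA libraries were above all 5 Controls, with a log2 difference of 1.01 ± 0.20 (adjusted p = 0.00468), and 0.63 without YAP5SA 3 (adjusted p = 0.133). The partner chains that assemble with it did not pass: Col6a1 differed by 0.24 ± 0.20 and Col6a3 by 0.24 ± 0.28. Col15a1, a basement-membrane-associated collagen of capillaries and muscle (chr4:47208161-47313167, plus strand), stood at 178, 182, 142, 117 and 132 in the Controls and at 207, 223 and 355 in YAP5SA 1 to 3. Again no Control reached a YAP5SA library. Its log2 difference was 0.80 ± 0.20 (adjusted p = 0.0181), and 0.41 without YAP5SA 3 (adjusted p = 0.316). Col14a1, Col16a1 and Col18a1 lay between -0.29 and 0.43 and did not pass.

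No fibrillar collagen passed. The 6 genes of types I, III and V had log2 differences from -0.17 to 0.91. Col3a1, the most abundant of them per length, stood at 842, 678, 563, 689 and 883 CPM in the Controls and at 410, 675 and 839 in YAP5SA 1 to 3. YAP5SA 1 was below the Control range and the other 2 inside it (-0.17 ± 0.22, adjusted p = 0.696). Col1a1, the main chain of type I collagen, was 248 ± 83.1 CPM (SD, n = 5) in the Controls and 466 ± 252 (n = 3) with YAP5SA (log2 difference 0.91 ± 0.33, adjusted p = 0.101), with 757 in YAP5SA 3 against 338 and 304 in the other 2. Col5a2 and Col1a2 had differences of 0.46 ± 0.19 and 0.64 ± 0.25 (adjusted p = 0.139 and 0.107).

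Matricellular genes and the elastic and adhesive glycoproteins each held 1 gene that passed, Thbs1 and Tgfbi. Thbs1 encodes thrombospondin 1, a secreted glycoprotein known for activating latent TGF-beta (chr2:118111876-118127133, plus strand). It stood at 8.62, 5.48, 0.24, 4.54 and 5.08 CPM in the Controls and at 205, 33.1 and 134 in YAP5SA 1 to 3. MEF2A 1 to 4 stood at 3.59, 7.30, 1.49 and 3.28, and the libraries with both viruses at 45.6 and 39.3. As for Col12a1, every library given YAP5SA was above every library that was not. The difference from Control was 4.65 ± 0.81 on the log2 scale (adjusted p = 0.00682), a ratio of means of 25.9. Without YAP5SA 3 it was 4.04 (adjusted p = 0.0736). Thbs2, its near relative, differed by -0.39 ± 0.29 and did not pass, and Postn, Tnc and Sparc did not pass either (-0.17 to 0.59).

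Tgfbi, an adhesive glycoprotein induced by TGF-beta (chr13:56609523-56639562, plus strand), stood at 10.5, 25.6, 10.7, 7.53 and 10.9 CPM in the Controls and at 30.7, 16.1 and 137 in YAP5SA 1 to 3. Control 2 was above YAP5SA 2, so the groups overlap, and YAP5SA 3 carried most of the difference. The log2 difference was 2.14 ± 0.58 (adjusted p = 0.0398) and 0.69 without YAP5SA 3 (adjusted p = 0.426), and leaving out any of 12 of the 14 libraries ended the call, with adjusted p of at least 0.0522 (Controls 1, 3, 4 and 5, MEF2A 1 to 4, YAP5SA 1 and 3 and both YAP5SA_MEF2A libraries). Fn1, Fbn1, Fbln2, Fbln5 and Eln, which build fibronectin fibrils, microfibrils and elastic fibres, had differences from -0.51 to 0.61 and did not pass.

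Of the 3 genes that crosslink collagen and elastin, Lox and Loxl2 rose and Loxl1 did not pass. Lox, the archetypal lysyl oxidase (chr18:52516067-52529867, minus strand), stood at 8.28, 1.70, 2.73, 5.24 and 8.16 CPM in the Controls and at 23.7, 6.87 and 76.2 in YAP5SA 1 to 3. YAP5SA 2 lay inside the Control range and the other 2 above it. The log2 difference was 2.71 ± 0.55 (adjusted p = 0.00717), 1.79 without YAP5SA 3 (adjusted p = 0.123) and 3.37 without Control 1 (adjusted p = 9.01e-04). Loxl2, an oxidase with a role in basement membrane collagen (chr14:69609068-69695834, plus strand), stood at 15.6, 14.1, 12.2, 9.68 and 14.9 in the Controls and at 50.8, 16.9 and 49.3 in YAP5SA 1 to 3. No YAP5SA library fell within the Control range, though YAP5SA 2 came near it. Its difference was 1.57 ± 0.30 (adjusted p = 0.00353), and 1.31 without YAP5SA 3 (adjusted p = 0.0708). Loxl1, which acts on elastin, differed by 0.70 ± 0.32 (adjusted p = 0.181).

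Among proteases and inhibitors, the TIMP genes Timp2 and Timp1 rose while the proteases Mmp2 (-0.13 ± 0.21) and Mmp14 (0.15 ± 0.25) did not pass. TIMPs are small secreted proteins that block matrix metalloproteinases. Timp2 (chr11:118301069-118355740, minus strand) stood at 24.03, 23.6, 12.3, 25.1 and 22.7 CPM in the Controls and at 64.8, 37.9 and 150 in YAP5SA 1 to 3. MEF2A libraries stood at 19.2, 16.4, 16.5 and 19.6, and those with both viruses at 55.4 and 56.7. The 5 libraries given YAP5SA were above all 9 others. The log2 difference for YAP5SA was 1.96 ± 0.32 (adjusted p = 0.00122), and 1.18 without YAP5SA 3, which kept the call (adjusted p = 0.0404). Leaving out Controls 1 and 2 and YAP5SA 3 ended the call (adjusted p = 0.238).

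Timp1 (chrX:20870166-20874735, plus strand), whose promoter above carries the TEAD letters at its far end, stood at 1.93, 0.26, 5.18, 5.08 and 3.39 CPM in the Controls and at 11.1, 3.52 and 35.3 in YAP5SA 1 to 3. YAP5SA 2 was below Controls 3 and 4, so the groups overlap. The log2 difference was 2.54 ± 0.66 (adjusted p = 0.0245), and 1.58 without YAP5SA 3 (adjusted p = 0.417). Leaving out Control 1, Control 5 or YAP5SA 1 also ended the call (adjusted p = 0.0623, 0.0507 and 0.0792). Leaving out Controls 1 and 2 and YAP5SA 3 turned the fitted direction, to -0.43 (adjusted p = 0.911), with batch estimated from the 4 MEF2A libraries alone. Timp3 was low in all groups, between 0.27 and 8.57 CPM.

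The 4 interstitial proteoglycans, which space collagen fibrils and bind growth factors, all had positive differences, none of which passed. Vcan, the large hyaluronan-binding proteoglycan versican, stood at 37.0, 40.2, 21.1, 34.4 and 39.2 CPM in the Controls and at 62.7, 50.9 and 55.8 with YAP5SA (0.67 ± 0.22, adjusted p = 0.0575). Its 3 YAP5SA libraries were all above the Controls and YAP5SA 3 was not the highest. The small leucine-rich proteoglycans had another pattern: Dcn stood at 211 CPM in YAP5SA 3 against 55.0 and 41.5 in YAP5SA 1 and 2, and Bgn at 182 against 61.8 and 23.2. Adjusted p was 0.102 for Dcn, 0.121 for Bgn and 0.0779 for Lum.

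Basement membrane genes moved in opposite directions: of 8, Lama4 fell, Lamc1 rose and 6 did not pass. Lama4, the laminin alpha 4 chain typical of endothelial and muscle basement membranes (chr10:38965515-39110188, plus strand), stood at 237, 221, 217, 185 and 154 CPM in the Controls, 82.3, 140 and 69.8 in YAP5SA 1 to 3, 209, 261, 216 and 266 in MEF2A 1 to 4, and 99.8 and 112 with both viruses. Every library given YAP5SA was below every library that was not. The log2 difference for YAP5SA was -1.14 ± 0.22 (adjusted p = 0.00313), and -0.96 without YAP5SA 3 (adjusted p = 0.0429). The difference did not pass without Controls 1 and 2 and YAP5SA 3. With scaling by library totals alone, which moved the median of all genes from 0.06 to 0.69, it was -0.44 (adjusted p = 0.534); that scaling gave 18 of the 46 genes higher and 0 lower (9.65% of all genes called).

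Lamc1, the gamma 1 chain common to most laminins (chr1:153218922-153332786, minus strand), stood at 60.8, 73.0, 54.1, 64.9 and 77.1 CPM in the Controls and at 140, 70.9 and 168 in YAP5SA 1 to 3. YAP5SA 2 lay inside the Control range. The log2 difference was 0.99 ± 0.22 (adjusted p = 0.00845), and 0.79 without YAP5SA 3 and 0.81 without YAP5SA 1 (adjusted p = 0.119 and 0.0687). Agrn stood at 731, 743, 1512, 815 and 777 CPM in the Controls and at 1600, 1597 and 1114 in YAP5SA 1 to 3 (0.70 ± 0.25, adjusted p = 0.0858). Control 3 lay within the YAP5SA range and the other 4 Controls below it. Hspg2 stood at 1140, 1035, 907, 1090 and 904 in the Controls and at 1137, 846 and 1247 with YAP5SA, with wide overlap (0.09 ± 0.18). Lama2 and Lamb1, the other chains of the main muscle and embryonic laminins, differed by -0.39 ± 0.20 and -0.27 ± 0.16, and the linker proteins Nid1 and Nid2 by 0.67 ± 0.52 and 0.09 ± 0.24.

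**Figure D3:**
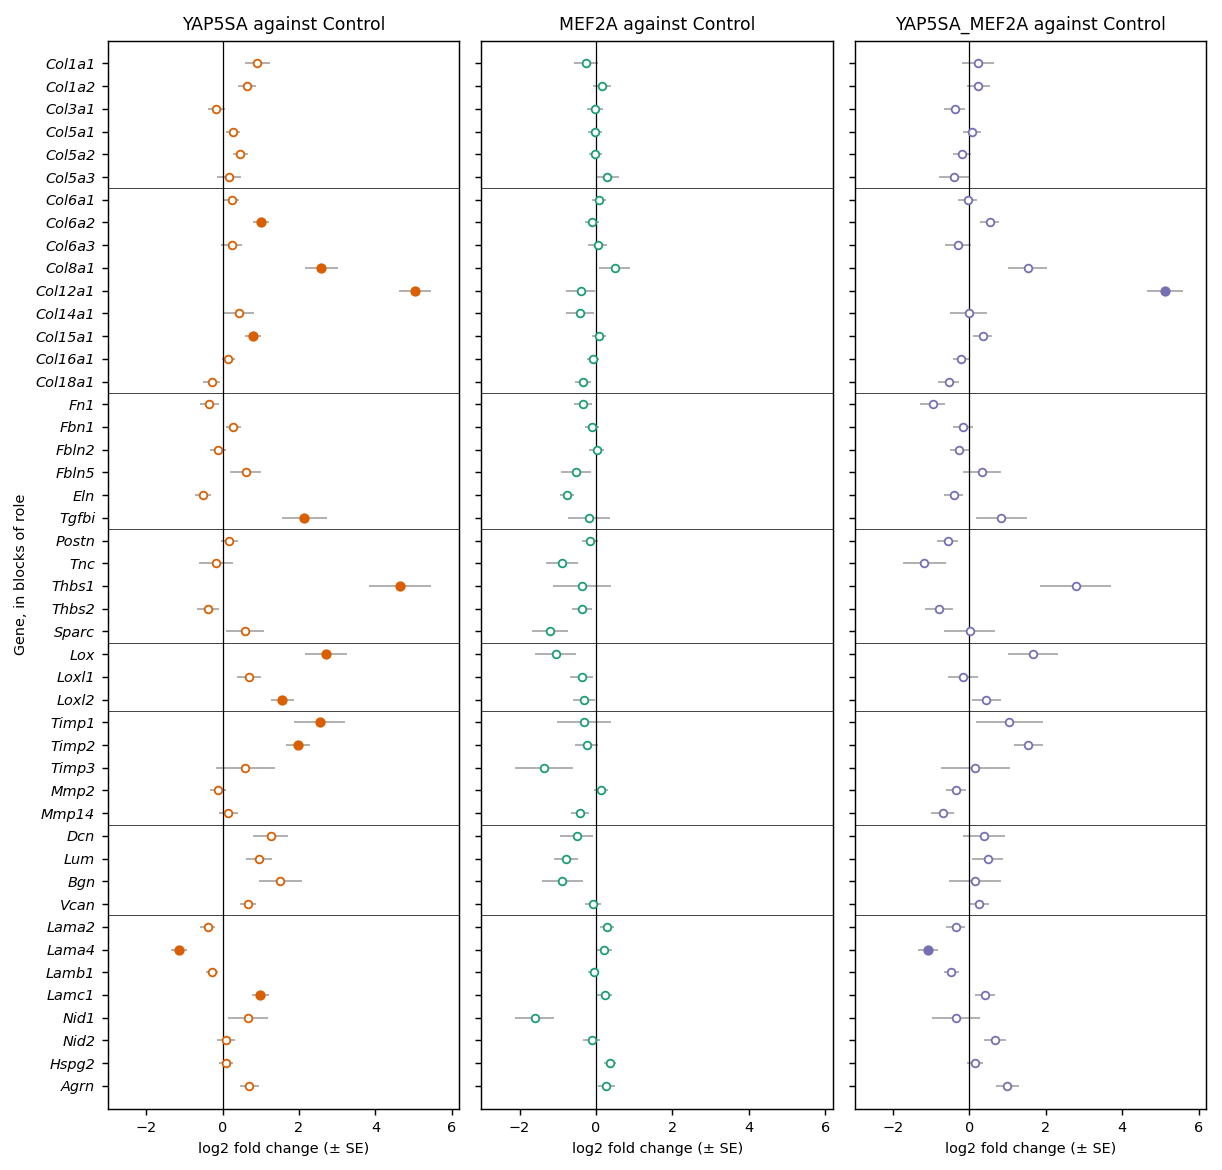
Log2 difference from Control (points) with its SE (bars) for the 46 genes in blocks of role, in YAP5SA, MEF2A and both viruses; filled points passed an adjusted p of 0.05. With YAP5SA 12 points are filled, with MEF2A 0, and with both viruses 2, Col12a1 at 5.12 and Lama4 at -1.09.

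The library YAP5SA 3 had the highest level of the 3 YAP5SA libraries for 35 of the 46 genes, against 6 for YAP5SA 1 and 5 for YAP5SA 2, and the highest of all 14 libraries for 26. Relative to the Control mean, the median over the 46 genes was 1.70 in YAP5SA 3 and 1.06 for the mean of YAP5SA 1 and 2. Batch 1 alone sets YAP5SA 1 and 2 against Controls 1 and 2, the Controls of high mitochondrial share. There 8 of the 46 passed (9.33% of all genes). In that batch Col12a1 (4.96), Thbs1 (4.03), Agrn (1.07) and Timp2 (1.06) were higher and Lama4 (-1.09), Fn1 (-0.95), Lama2 (-0.85) and Sparc (-0.81) lower on the log2 scale. The median over the 46 was -0.13 there. Col12a1, Timp2 and Lama4 passed the threshold both there and without YAP5SA 3. These 2 fits share YAP5SA 1 and 2 and Controls 1 and 2, so they are not independent. Without Controls 1 and 2 and YAP5SA 3, of these genes only Col12a1 passed. Thbs1 passed in batch 1 and had an adjusted p of 0.0736 without YAP5SA 3. In batch 2 alone YAP5SA 3 is the only YAP5SA library. There the log2 differences were 4.93 for Col12a1, 5.34 for Thbs1, 0.11 for Agrn and 2.90 for Timp2. Of the genes lower in batch 1, Lama4 was -1.41, while Fn1 (0.30), Lama2 (0.07) and Sparc (2.10) were positive.

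**Figure D4:**
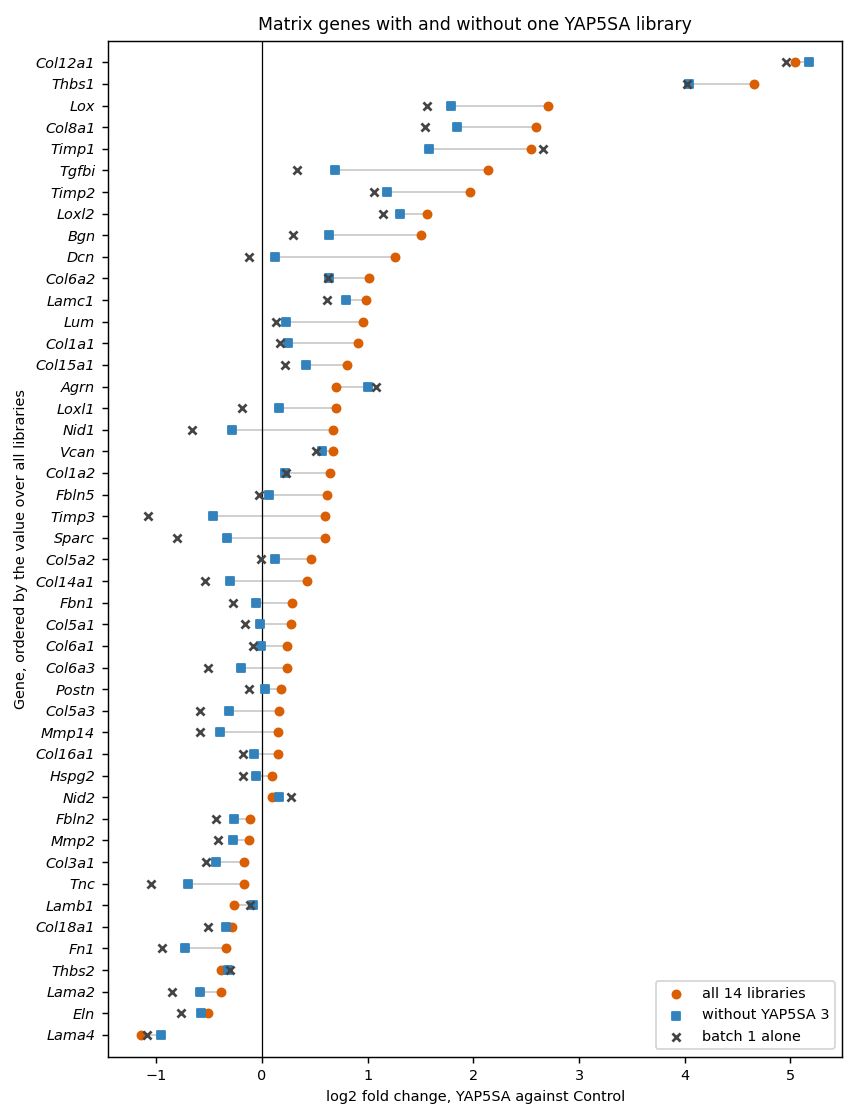
Log2 difference of YAP5SA against Control for the 46 genes, ordered by the value over all 14 libraries. Circles are the fit of all 14 libraries, squares the fit without YAP5SA 3 and crosses batch 1 alone. Col12a1, Timp2 and Lama4 passed an adjusted p of 0.05 in all 3 fits, while Tgfbi moves from 2.14 to 0.69 without YAP5SA 3.

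Markers of other cells differed between these libraries as well. Counts of calls below stand beside 5.69% of all genes called higher and 4.17% lower, or 3.08% in either direction without YAP5SA 3. Summed over 12 macrophage markers, the level was from 56.5 to 203 CPM in the Controls, 203 and 85.8 in YAP5SA 1 and 2, and 1084 in YAP5SA 3, the library where Tgfbi, Timp1, Lox, Bgn and Dcn were highest. Of the 12, 2 were called higher and all 12 differences were positive (median 1.80), and without YAP5SA 3 there were 0 calls and a median of 0.35. The 12 fibroblast markers summed to between 129 and 228 CPM in the Controls and to 138, 181 and 242 in YAP5SA 1 to 3, with 1 of 12 called higher, a share near that of all genes, and a median of -0.47, and 0 called without YAP5SA 3. Of 8 epicardial markers 3 rose, with sums of 104 to 155 CPM in the Controls and 187 to 217 with YAP5SA, and 3 of 7 tested rose without YAP5SA 3. Endothelial cells express Lama4, and 5 of 12 endothelial markers fell (summed 482 to 1105 CPM in the Controls, 344 to 558 with YAP5SA). The endothelial count was 0 without YAP5SA 3 (median -0.67) and 0 with library totals (median -0.06). In batch 1 alone, with Controls 1 and 2 as the only Controls, 6 of 12 fell (median -0.88), where 9.33% of all genes were called. Without Controls 1 and 2 and YAP5SA 3 the endothelial count was 0 (median -0.16). No list of these 4 had a member at 0 in a whole group. The 8 mural markers gave 0 calls (1 at an unadjusted p under 0.05) and overlapping sums, 427 to 597 against 476 to 540. The 12 cardiomyocyte markers, led by the myosin gene Myh6, summed to 45579 to 89432 CPM in the Controls and 29956 to 42799 with YAP5SA, with 2 of 12 called lower. Without YAP5SA 3 the call was 1 higher and 0 lower, in batch 1 alone 1 and 1, and with library totals 0 and 0. Their part in the matrix differences was not tested. In nuclei mixed from several cell types, fewer cells of a type and less RNA per cell cannot be told apart.

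MEF2A against Control asked what MEF2A does on its own, and 0 of the 46 genes passed (0.0167% of all genes did). At an unadjusted p under 0.05 there were 5, 1 higher and 4 lower, and DESeq2 called 1 and limma-voom 0. Without Control 3 edgeR called 1. These counts carry no share of all genes and show only how the calls moved. The median log2 difference was -0.17 over the 46 and 0.02 over all genes. Eln had the smallest p, with 503, 349, 514, 638 and 742 CPM in the Controls and 212, 192, 523 and 366 in MEF2A 1 to 4 (-0.76 ± 0.19, adjusted p = 0.397). MEF2A 3 lay within the Control range and MEF2A 4 at its lower end. Nid1 stood at 16.5 ± 9.63 CPM (SD, n = 5) in the Controls and 5.33 ± 0.87 (n = 4) with MEF2A (-1.60 ± 0.51, adjusted p = 0.602). Sparc stood at 259 ± 142 and 111 ± 24.5 (-1.21 ± 0.47, adjusted p = 0.638). Both genes were high in Controls 1 and 2, at 21.99 and 29.1 CPM for Nid1 and 390 and 424 for Sparc, the Controls of high mitochondrial share. In Controls 3 to 5 they stood at 4.41, 10.5 and 16.7 and at 110, 143 and 227. The only Controls of batch 1 are Controls 1 and 2. In batch 1 alone Eln (-1.11, adjusted p = 0.0361), Nid1 (-2.38, 0.0317) and Sparc (-2.20, 0.00502) were called lower. In batch 2 alone the log2 differences of Eln, Nid1 and Sparc were -0.49, -0.89 and -0.26.

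With both viruses against Control, 2 of the 46 passed, Col12a1 higher and Lama4 lower (4.35%, against 1.36% of all genes, 1.16% higher and 0.195% lower). Col12a1 rose from 5.996 to a mean of 177 ± 1.56 CPM (SD, n = 2), a log2 difference of 5.12 ± 0.48 (adjusted p = 7.75e-05). Lama4 fell by 1.09 on the log2 scale (SE 0.26, adjusted p = 0.0455), from 203 ± 33.0 to 106 ± 8.35. Over the 12 endothelial markers, all 12 differences were negative in this comparison (median -0.93), with 0 called and 8 at an unadjusted p under 0.05, and their part in the Lama4 difference was not tested. The Lama4 call was lost without Control 1, 2 or 4, MEF2A 2 or 3, or either both-virus library, with adjusted p from 0.0644 to 0.468. Timp2 was just outside the threshold (1.54 ± 0.38, adjusted p = 0.0553), and Thbs1 differed by 2.78 ± 0.93 (adjusted p = 0.202), and in both genes the 2 libraries were above all 5 Controls. Of all tested genes, 14.9% were likewise above all Controls and 8.43% below. Col8a1 (1.52 ± 0.51, adjusted p = 0.164) and Lox (1.66 ± 0.65, adjusted p = 0.259) had positive differences that did not pass. The count was 5 without Control 3, 4 without YAP5SA 3 and 1 under each omission that lost Lama4. Shares of all genes are not given for these omissions, so the counts show only how the calls moved.

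Against MEF2A alone, both viruses changed 3 of the 46 (6.52%, against 2.32% of all genes, 1.61% higher and 0.706% lower). Col12a1 rose by 5.52 ± 0.51 on the log2 scale (adjusted p = 6.27e-05), from 4.51 ± 1.57 (SD, n = 4) to 177 CPM. Timp2 rose by 1.79 ± 0.39 (adjusted p = 0.0241), from 17.9 ± 1.73 to 56.1 ± 0.95 CPM. Lama4 fell by 1.31 (SE 0.27, adjusted p = 0.0141), from 238 ± 29.8 to 106 CPM. The groups did not overlap for these 3 genes. Of all tested genes, 22.8% lay wholly above and 18.3% wholly below in the same way. The Timp2 call was lost without any of MEF2A 1 to 4 and either both-virus library (adjusted p from 0.0524 to 0.164), and the Lama4 call without either both-virus library (0.249 and 0.15). The count of calls was 5 without Control 3 and 1 without either both-virus library. Here too no share of all genes is given, so these counts show only how the calls moved.

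Whether MEF2A altered the YAP5SA state was asked by both viruses against YAP5SA and by the interaction. In neither did any of the 46 pass, nor did any of all tested genes (0%), by edgeR, and for these 46 also by DESeq2 and limma-voom (0 each). Against YAP5SA, 39 of the 46 differences were negative with a median of -0.46, 4 at an unadjusted p under 0.05, all lower: Col5a2 (-0.66 ± 0.25), Postn (-0.74 ± 0.29), Loxl2 (-1.12 ± 0.41) and Mmp14 (-0.85 ± 0.33), each with an adjusted p of 1. Col12a1 (0.08 ± 0.48) and Lama4 (0.05 ± 0.26) were the nearest to 0 of the genes that had changed with YAP5SA. This comparison sets 2 libraries of batch 1 against a group that includes YAP5SA 3 of batch 2, and without YAP5SA 2 it gave 1 call. The share of all genes called in that fit is not given. The interaction, which is the MEF2A difference in the presence of YAP5SA minus that in its absence, had a median of -0.31 with 3 genes at an unadjusted p under 0.05, 1 higher and 2 lower. In batch 1 alone, the only batch with all 4 groups, its values lay on both sides of 0 and none passed. Sparc (2.32), Nid1 (2.06) and Eln (1.27) were positive there, and Timp1 (-2.07) and Thbs1 (-1.06) negative. These comparisons share libraries with those above, so their values are not independent of them.

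Other matrix genes, in lists that do not include the 46, changed in YAP5SA against Control as follows, where 9.86% of all tested genes were called, and 3.08% without YAP5SA 3. Of 22 genes of collagen folding and processing 6 rose and 1 fell, with a median of 0.55. Plod2, which hydroxylates telopeptide lysines for crosslinking, rose by 3.57 ± 0.28 on the log2 scale (adjusted p = 7.36e-07), from 58.3 ± 19.6 CPM (SD, n = 5) to 664 ± 198 (n = 3). P4ha1, a prolyl hydroxylase subunit, rose by 1.70 ± 0.20, and Serpinh1, the collagen chaperone HSP47, by 1.59 ± 0.34 (0.90, adjusted p = 0.176, without YAP5SA 3). Of 25 matrix receptors 8 rose and 0 fell (median 0.74), among them the laminin-binding integrin chain Itga3 (1.70 ± 0.25), the collagen receptor Ddr1 (2.28 ± 0.38) and the hyaluronan receptor Cd44 (2.12 ± 0.42; 1.42, adjusted p = 0.14, without YAP5SA 3). Without YAP5SA 3 the counts were 2 of 22 and 2 of 25, all higher. With Controls 1 and 2 also left out, 1 of 22 rose and 0 of 25 passed (0.428% of all genes). Batch was estimated from MEF2A alone in that fit. In batch 1 alone 5 of 22 rose (median 0.29), and 3 of 25 receptors rose and 1 fell (median 0.02). There 9.33% of all genes were called.

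Of 23 tested proteases and inhibitors outside the 46, 5 rose and 0 fell (median 0.72). Plau, the secreted protease urokinase, rose by 3.21 ± 0.57 (2.85, adjusted p = 0.08, without YAP5SA 3). Of 29 other matricellular and elastic fibre genes 10 rose and 1 fell (median 0.42, the same with Spp1, at 0 in all Controls, set to a bound from 3 counts per library). The textbook YAP target Ccn2 stood at 62.6, 37.6, 54.5, 45.9 and 31.6 CPM in the Controls and at 551, 176 and 432 with YAP5SA, with no overlap (3.01 ± 0.39, adjusted p = 5.58e-04). Thbs4, a thrombospondin of muscle and tendon, rose by 2.70 ± 0.40 and Ccn4 by 1.59 ± 0.27. Without YAP5SA 3, 1 of 23 and 3 of 28 were called, all higher. With Controls 1 and 2 also left out, 0 of 22 and 0 of 28 were called. In batch 1 alone 1 of 23 proteases and inhibitors rose, and 4 of 28 matricellular genes rose and 5 fell (median 0.24).

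Of 15 tested laminins and basement membrane genes outside the 46, 2 rose and 1 fell (median 0.20). Hmcn1, the giant linker hemicentin 1, fell by 1.91 (SE 0.23, adjusted p = 6.49e-05), from 270 ± 56.4 to 81.4 ± 34.0 CPM, and by 1.25 under library totals (adjusted p = 0.0888). Of 18 other collagens 1 rose (Col9a2, 1.91 ± 0.38) and 2 fell (Col23a1, -2.02 ± 0.44, and Col24a1, -1.62 ± 0.37), with a median of 0.04, and 0 of 17 passed without YAP5SA 3. Col24a1 also lost its call without YAP5SA 1 (adjusted p = 0.0534), and Col9a2 was 2.58 without Control 1. With library totals, 1 of these 18 was called higher and 0 lower. For comparison, 5 of the 6 type IV collagen genes rose, with sums of 556 to 689 CPM in the Controls and 2700, 1329 and 2494 in YAP5SA 1 to 3. Without Controls 1 and 2 and YAP5SA 3, 2 of these 6 rose. In that fit 1 of 15 laminins and basement membrane genes fell, and 0 of 17 other collagens passed. In batch 1 alone 4 of the 6 rose, 2 of the 15 rose and 1 fell, and 1 of 15 other collagens rose. With both viruses, calls against Control in these lists were Plod2 (3.23), Itga3 (1.54), Ddr1 (2.11), Plau (3.14), Adamts8 (1.26), Ccn4 (1.77), Ccn2 (2.22) and 2 type IV collagens higher, and Col24a1 (-1.85) and Hmcn1 (-1.27) lower, on the log2 scale. Without YAP5SA 3, 1 of 23 proteases and inhibitors and 1 of 28 matricellular genes were called in place of 2 each. Without that library and Controls 1 and 2, with batch estimated from MEF2A alone, 0 receptors, 0 proteases and inhibitors and 0 matricellular genes were. With MEF2A alone there were 0 calls in every list. At an unadjusted p under 0.05 there were 2 of 22 in collagen processing, 2 of 25 receptors, 2 of 23 proteases and inhibitors, 3 of 29 matricellular genes, 2 of 15 laminins, 2 of 18 collagens and 0 of 6 type IV collagens.

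The libraries were not directional, so reads from overlapping genes on opposite strands cannot be told apart. Col12a1, Timp2 and Lama4 overlap no exon of another gene. Exons of Thbs1 overlap Gm29233 over 3.42% of their length, Loxl2 overlaps Gm27177 over 5.57%, and Fbn1, Timp3 and Nid2 overlap other genes over 20.1%, 21.3% and 8.45%, so their counts are less certain.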

How the data were processed

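Per the labels and the series' design text, polyA-selected, non-directional libraries were made from RNA of PCM1-enriched heart nuclei and sequenced on a NovaSeq X Plus. The values deposited by the authors were raw counts of reads for each Ensembl gene. STAR, limma and edgeR with build GRCm38 are named in the submitters' processing notes; versions, the counter, its annotation and its strand setting are not given in the sources used here. Libraries took group, number and batch from the labels.

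Symbols, exon lengths and coordinates came from GENCODE vM21 (GRCm38) by gene ID, and promoters from RefSeq (GRCm38.p6). Genes were kept by filterByExpr (minimum count 10, total 15), which left 17987, and scaled by TMM in edgeR 4.0.16 (R 4.3.3). edgeR's robust quasi-likelihood F-test with group and batch as terms was fitted over all 14 libraries, with two-sided Benjamini-Hochberg adjusted p over all tested genes and calls under 0.05. The SE is the log2 difference over the square root of F. The biological coefficient of variation was 0.503.

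The 46 genes and the other lists were chosen with earlier results of these data known. Values by library are given for genes called in any comparison and the 3 uncalled ones of highest mean level per kilobase (Agrn, Hspg2, Col3a1). Other genes are given by range or count. From other matrix lists, up to 3 called genes of smallest p are named. The values of 1 gene are not reported here. Vcan, Dcn, Bgn, Eln, Nid1, Sparc and other uncalled genes with values were singled out after these were seen.

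The alternatives were library totals or RLE for scaling, a minimum count of 30 or no filter, DESeq2 1.42.0 and limma 3.58.1 (voom) as tests, a fit that dropped batch, a fit with a block for replicate number instead, batch 1 by itself, removal of mitochondrial genes, omission of each library, and omission of Controls 1 and 2 with or without YAP5SA 3. The scripts were tested on simulated counts with known changes. Of genes given a log2 change of 1, 19% were called for YAP5SA, 27% for MEF2A and 2% for both viruses against Control. At a log2 change of 2 these shares were 54%, 62% and 46%. Genes that did not pass may thus still differ.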

Additional observations from a re-analysis of the deposited data

Results flagged for a closer look

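In the groups of 4 or 5 libraries, 8 of the 92 combinations of gene and group held a library far from the others of its group, where chance alone flags about 1 in 20. Control 2 was high for Tgfbi, at 25.6 CPM against 7.53 to 10.9 in the other Controls, and for Timp3, at 5.09 against 1.36 to 1.77. Control 3 was low for Timp2, at 12.3 against 22.7 to 25.1, and high for Agrn, at 1512 against 731 to 815. MEF2A 3 was high for Tgfbi, at 16.03 against 10.02 to 10.5, and for Lum, at 11.0 against 7.18 to 7.60. MEF2A 2 was high for Vcan, at 43.3 against 28.4 to 30.6. MEF2A 4 was low for Col6a2, at 60.2 against 73.4 to 75.8. The YAP5SA and both-virus groups have too few libraries for this comparison.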

How the results depend on the processing

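Of the 17 calls over the 46 genes, all 17 held with RLE scaling, no filter, the stricter filter, DESeq2, limma-voom and mitochondrial genes removed, 14 with library totals and 16 with no batch term. In batch 1 alone 8 held, without Controls 1 and 2 15, and without these and YAP5SA 3 5, with Timp1 for YAP5SA turned to -0.43. For YAP5SA against Control (12 of 46 genes) the count was 19 without Controls 1 and 2, 1 without these and YAP5SA 3, and 21 in batch 2 alone, where YAP5SA 3 is the only YAP5SA library and is assumed to vary like the other groups (an alternative chosen after seeing the data). It was 3 to 18 with each library left out. For MEF2A (0) it was 5 with no filter, 1 with DESeq2, 3 in batch 1 alone and 0 to 1 with a library left out. For both viruses against Control (2) it was 5 with library totals, 9 with no filter, 4 with DESeq2, 5 with limma-voom, 7 in batch 1 alone, 1 without Controls 1 and 2, 1 without these and YAP5SA 3, and 1 to 5 with a library left out. Against YAP5SA (0) it was 2 with no filter and 0 to 1. Against MEF2A (3) it was 6 with library totals, 9 with no filter, 5 with DESeq2, 5 without Controls 1 and 2, 5 without these and YAP5SA 3, and 1 to 5. The interaction gave 0 in every setting. Counts given here without a share of all genes show how the calls moved, and not whether matrix genes moved more than others. The cause of these shifts was not tested. Replicate numbers did not pair the samples: over 16 same-number pairs the correlation of deviations ran from -0.21 to 0.14, with 2 above 0.1. With the replicate block in place of batch the counts were 8 for YAP5SA, 1 for both viruses against Control, 2 against MEF2A and 0 elsewhere, and 11 of the 17 calls held. Col12a1 was called in all settings of its 3 comparisons. Named genes of the other lists were put through the same settings after seeing the data: Plod2 was called in all 27. Depth limits the low genes: Timp1 rested on 2 reads in Control 2, and Thbs1 on 6 in Control 3.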
